A study of Mus musculus with 8 samples.

Results

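The 44 genes described here make the machinery that condenses, moves and separates chromosomes and then divides the cell: Ki-67 and topoisomerase II alpha, the condensins, the mitotic kinesins, the spindle assembly proteins, the central spindle and cytokinesis proteins, and the kinases, cyclins and exit enzymes that time them. They were taken from a fixed list of mouse symbols matched to Ensembl rows, a list chosen with earlier results of these data known. All 44 were found among the 26062 gene IDs of the count table. RNA sequencing measured them in microglia, brain-resident macrophages, isolated with magnetic beads that bind their surface integrin CD11b. The tissue was the lateral geniculate nucleus (LGN), where the thalamus relays visual input to the cortex. All mice were wild type C57BL/6J males aged 2 to 3 months. Uninjured mice gave 2 libraries, and mice with both optic nerves crushed, an injury that cuts the retinal axons ending in the LGN, gave 3 libraries 1 day after crush and 3 libraries 3 days after crush. RNA was linearly amplified before the libraries were made. Whether a library holds 1 mouse or several is not in the labels; p-values therefore reflect the spread among these 8 libraries alone, part of which may be technical.

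A dividing cell makes most of these proteins shortly before mitosis and destroys many of them at its end. Their RNAs are low in resting cells. At entry into mitosis, cyclin-dependent kinase 1 with its cyclins starts condensation by condensin and the building of a bipolar spindle by motor proteins. After the sister chromatids part, the central spindle marks the cleavage plane, and an actomyosin ring and the abscission machinery split the cell. Microglia of the adult brain are long-lived, renew slowly, and can divide locally after injury to the axons that end around them.

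Uninjured libraries held 17533499 to 17994861 counts, those of 1 day 12700098 to 15489477, and those of 3 days 13756487 to 14993580. The number of genes with a count ran from 21663 to 22395 in uninjured libraries, 18035 to 20220 at 1 day and 20632 to 21044 at 3 days. All 12 microglial markers examined, among them P2ry12, Tmem119 and Cx3cr1, had counts in every group, with a summed level of 9228 to 11947 CPM in uninjured libraries, 12772 to 15771 CPM at 1 day and 8850 to 10183 CPM at 3 days. CPM are the counts after scaling to a common library size by the TMM method. Endothelial markers (15 genes) summed to 1919 to 2110, 909 to 1163 and 1671 to 1703 CPM in the same order, mural cell markers (11 genes) to 1427 to 1660, 788 to 987 and 1136 to 1297 CPM, and choroid plexus and ependyma markers (8 genes) to 523 to 5507, 1.09 to 56.7 and 623 to 3568 CPM, with Folr1 at 0 at 1 day. Monocyte markers (8 genes) summed to 103 to 104, 122 to 133 and 49 to 64.9 CPM. Neutrophil markers (8 genes) summed to 33 to 45, 55.4 to 147 and 21.8 to 46 CPM, border macrophage markers (7 genes) to 592 to 703, 542 to 771 and 387 to 486 CPM, and astrocyte markers (12 genes) to 129 to 167, 95.7 to 154 and 80.5 to 90.3 CPM. Oligodendrocyte lineage markers (12 genes, with Olig2 at 0 at 1 and 3 days) summed to 117 to 138, 89.6 to 129 and 116 to 160 CPM. Neuron and neuroblast markers (10 genes with a row, with Tubb3 and Dcx at 0 at 1 day) summed to 16.4 to 18.3, 15.2 to 21.3 and 12.4 to 17.1 CPM, and lymphocyte markers (8 genes with a row) stayed at or under 2.48 CPM in sum in every library.

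The sequence around the start of most of the 44 genes carried the same pair of short elements. RefSeq promoter windows (build GRCm38.p6, 250 bases before to 50 after the start) were at hand for 38 of the 44 genes; Ccna2, Kif20a, Tpx2, Smc4, Pbk and Cdc25c had none. The words searched on both strands were the cell cycle genes homology region (CHR, TTTGAA with the variant TTCGAA), the element bound by DREAM and MuvB complexes, the NF-Y box (CCAAT), and an E2F element (TTCCCGC). No 2 of these words contain each other, and TTCGAA is its own reverse complement. A CHR word lay in 32 of 38 members (84.2%), against 16.9% of the 11420 tested genes with a window and 21.7% of all 27025 genes of the promoter table. An NF-Y box lay in 27 of 38 (71.1%), against 42.2% and 41.1%. Both together lay in 26 of 38 (68.4%), against 6.88% and 8.61%. The E2F word was found in 2 of 38 members (5.26%), against 9.26% and 5.29%. The windows' median GC content was 60.2% for members and 60.1% for all tested genes. Members carried the CHR word close to the start: 27 of 38 (71.1%) had it between position -50 and position 49 around the start, against 3.56% of tested genes, and 19 of 38 (50%) had an NF-Y box there, against 14.5%. A word match is not evidence of a bound site. The 6 windows printed here are those of Mki67 and Top2a, the members with the smallest p at 3 days, of Spag5 and Nusap1, which fell at 1 day, of Ccnb1, which has NF-Y boxes without a CHR word, and of Prc1, which carries both elements and was not called at 3 days. They read 5′ to 3′ on the gene's strand, with CHR words and NF-Y boxes of either strand in capitals. The windows are chr7:135716330-135716629 on the minus strand for Mki67, chr11:99024140-99024439 on the minus strand for Top2a, chr11:78301341-78301640 on the plus strand for Spag5, chr2:119618048-119618347 on the plus strand for Nusap1, chr13:100786437-100786736 on the minus strand for Ccnb1, and chr7:80294201-80294500 on the plus strand for Prc1.
Mki67: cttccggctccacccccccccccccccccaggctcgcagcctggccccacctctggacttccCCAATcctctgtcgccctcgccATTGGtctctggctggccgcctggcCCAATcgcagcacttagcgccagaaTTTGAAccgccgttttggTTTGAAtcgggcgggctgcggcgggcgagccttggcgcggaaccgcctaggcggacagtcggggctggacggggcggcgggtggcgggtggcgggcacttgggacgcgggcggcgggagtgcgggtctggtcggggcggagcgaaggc
Top2a: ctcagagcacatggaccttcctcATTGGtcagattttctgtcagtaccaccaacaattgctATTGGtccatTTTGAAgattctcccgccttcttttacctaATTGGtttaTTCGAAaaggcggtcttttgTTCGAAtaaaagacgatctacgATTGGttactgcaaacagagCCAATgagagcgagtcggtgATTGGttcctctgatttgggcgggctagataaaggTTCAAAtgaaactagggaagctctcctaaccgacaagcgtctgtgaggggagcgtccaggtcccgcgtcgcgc
Spag5: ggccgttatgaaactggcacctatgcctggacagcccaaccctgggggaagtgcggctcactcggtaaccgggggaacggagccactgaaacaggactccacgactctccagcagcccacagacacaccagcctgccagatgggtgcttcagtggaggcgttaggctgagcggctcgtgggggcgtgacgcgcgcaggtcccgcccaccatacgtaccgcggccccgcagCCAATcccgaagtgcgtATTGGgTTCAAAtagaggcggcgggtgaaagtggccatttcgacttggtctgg
Nusap1: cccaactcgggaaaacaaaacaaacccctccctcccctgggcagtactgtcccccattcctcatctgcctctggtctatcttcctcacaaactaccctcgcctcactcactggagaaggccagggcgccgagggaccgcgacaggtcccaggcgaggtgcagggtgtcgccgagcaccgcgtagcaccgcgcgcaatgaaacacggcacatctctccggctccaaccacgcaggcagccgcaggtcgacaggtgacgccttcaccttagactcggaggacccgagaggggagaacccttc
Ccnb1: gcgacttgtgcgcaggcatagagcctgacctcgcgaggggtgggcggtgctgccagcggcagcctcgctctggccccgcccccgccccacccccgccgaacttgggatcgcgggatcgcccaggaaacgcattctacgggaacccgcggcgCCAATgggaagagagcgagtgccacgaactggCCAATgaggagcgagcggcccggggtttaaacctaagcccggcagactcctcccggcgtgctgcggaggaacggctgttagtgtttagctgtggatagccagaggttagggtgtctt
Prc1: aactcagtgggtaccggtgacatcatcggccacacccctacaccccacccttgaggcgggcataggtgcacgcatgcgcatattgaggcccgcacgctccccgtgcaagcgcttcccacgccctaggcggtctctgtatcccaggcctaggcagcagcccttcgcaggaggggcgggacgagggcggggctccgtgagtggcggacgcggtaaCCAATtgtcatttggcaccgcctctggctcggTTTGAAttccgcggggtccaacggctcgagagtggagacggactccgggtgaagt

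Top2a held 4 CHR words and 6 NF-Y boxes, the densest of the windows shown, and Mki67 held 2 CHR words and 3 NF-Y boxes. Spag5 and Prc1 each had a CHR word within 5 bases of the start and an NF-Y box upstream of it, the usual layout of a mitotic promoter. Nusap1, Tacc3, Kif18a, Melk and Ncaph had none of the 3 words, and Ccnb1 had NF-Y boxes but no CHR word. The CHR word lay in 23 of the 28 members with a window that were called higher at 3 days over uninjured (82.1%) and in 9 of the 10 not called (90%). Of other gene lists, kinetochore and checkpoint genes had a CHR word in 17 of 31 windows (54.8%) and DNA replication genes in 6 of 30 (20%), where the E2F word was found in 14 of 30 (46.7%). Kinesins of intracellular transport, relatives of the mitotic motors, had a CHR word in 1 of 15 windows (6.67%).

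**Figure D1:**
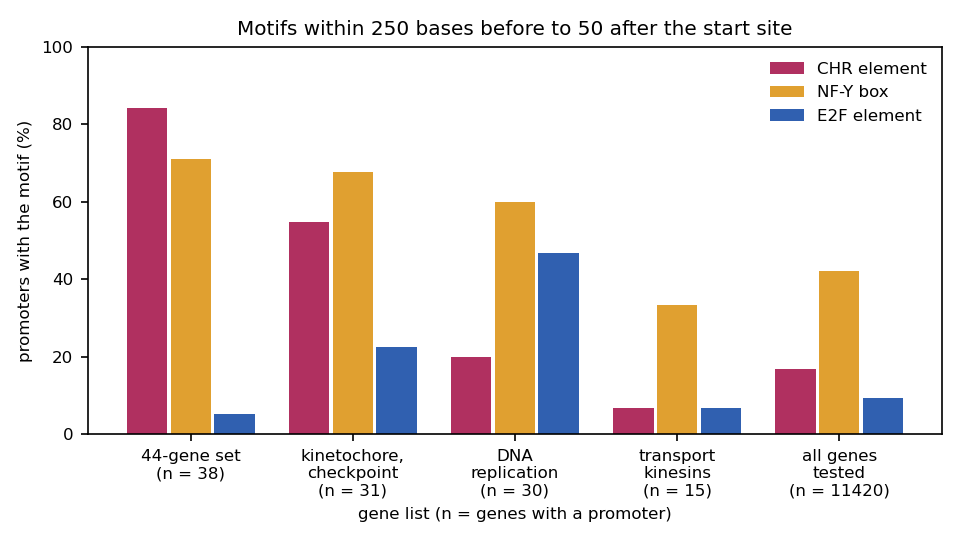
Share of genes (percent, vertical axis) whose promoter window holds a CHR word, an NF-Y box or an E2F word on either strand, for the 44-gene set, 3 related lists and all tested genes (n genes with a window under each). The CHR bar stands at 84.2% for the 44 genes and 16.9% for all tested genes, while the E2F bar is highest for DNA replication genes at 46.7%.

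At 3 days after crush the whole set stood above the uninjured level. Each of the 44 genes was higher in all 3 libraries at 3 days than in both uninjured libraries, a separation that 20.1% of the 17390 tested genes showed. By edgeR's quasi-likelihood test with Benjamini-Hochberg adjustment over all tested genes (called at an adjusted p under 0.05), 33 of 44 rose, against 2.49% of all tested genes called higher. None fell by this test, at an unadjusted p under 0.05, by DESeq2 or by limma-voom, against 0.983% of all tested genes called lower by edgeR. The median log2 fold change was 3.95 over the members and -0.00 over all tested genes, and it stayed 3.95 with genes absent from a group set at their bound. Summed over the set, 3 days gave 2382, 3149 and 3535 CPM, against 272 and 242 CPM in uninjured libraries, a mean of 3022 ± 587 (SD, n = 3) against 257 ± 21.2 (SD, n = 2) and a ratio of 11.8. In bulk RNA, more dividing cells and more RNA of these genes per cell cannot be told apart. All 44 genes passed the filter on low counts, but 11 of them (Kifc1, Kif18b, Spag5, Hmmr, Kif14, Kif20a, Cep55, Ccnb1, Cdc25c, Ube2c and Pbk) passed only through the 3 days libraries, so their height there was a condition of being tested. Of the other 33, 24 were called higher. The number of calls varied with the libraries held. It was 35 without any 1 of the 1 day libraries, and 26, 28 and 23 without 3 days replicates 1, 2 and 3. It was lower still without either uninjured library, which leaves 1 library in that group. Over all tested genes 433 were called higher with all libraries, and 229, 281 and 144 without 3 days replicates 1, 2 and 3. Mitochondrially encoded genes took 22.8% to 30.3% of the counts at 3 days, against 21.3% to 22.5% in uninjured libraries. Of the 12 microglial markers 4 were called lower at 3 days, and the marker sums of endothelial cells, mural cells, monocytes, border macrophages and astrocytes lay under both uninjured libraries. F13a1, on both the monocyte and border macrophage lists, made up most of the monocyte sum. It had 80.8 and 90.1 CPM in uninjured libraries and 46.3, 53.3 and 36.2 CPM at 3 days. Slc1a3 was the largest part of the astrocyte sum, with 81.3 and 86.7 CPM in uninjured libraries and 37.3, 55.5 and 45.4 CPM at 3 days. The part of these shifts in the result was not tested.

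**Figure D2:**
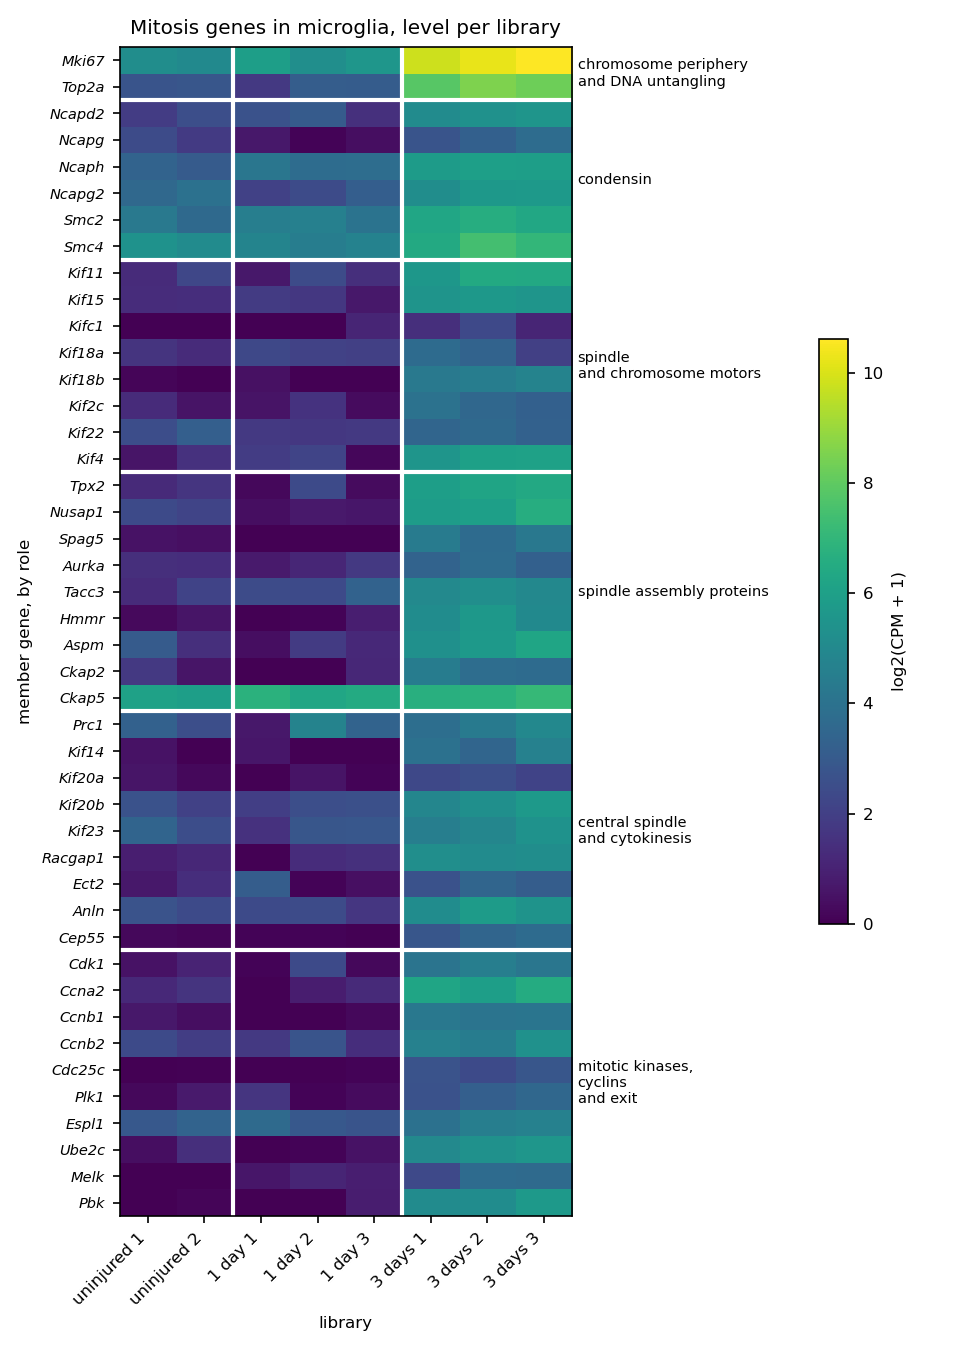
Level of each of the 44 genes (rows, grouped by role) in each of the 8 libraries (columns, uninjured, 1 day and 3 days after crush), as log2(CPM + 1) by colour. The 3 columns of 3 days are brighter than the uninjured columns in every row, with Mki67 the brightest row at 900 to 1556 CPM.

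**Figure D3:**
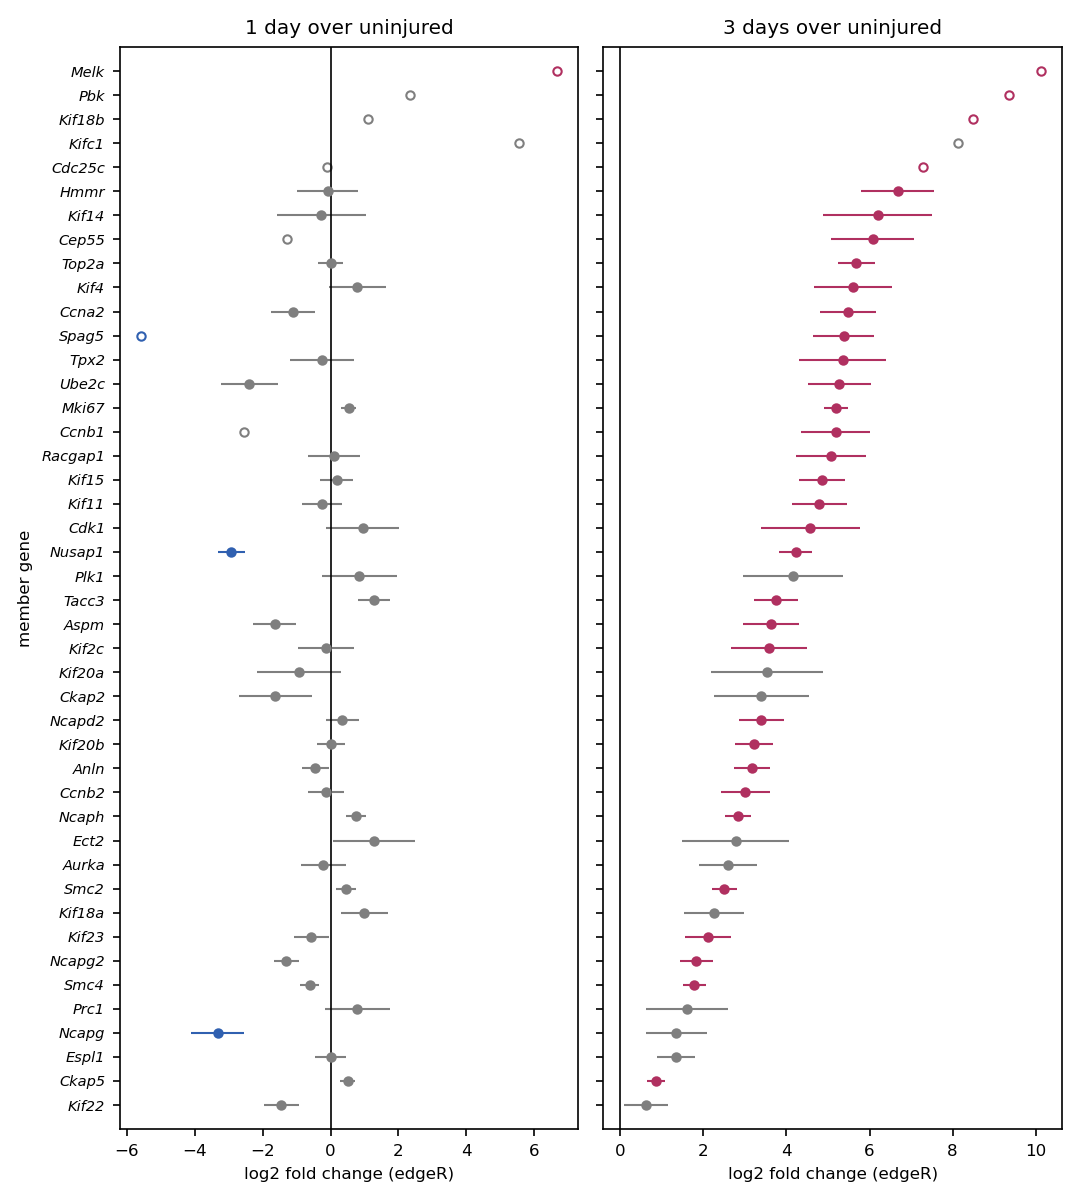
Log2 fold change by edgeR of each gene (rows, ordered by the 3 days value) at 1 day over uninjured (left) and 3 days over uninjured (right), with standard errors; red marks genes called higher, blue genes called lower, grey genes not called. Open circles without error bars are genes with 3 or fewer counts in 1 of the 2 groups, whose fitted position depends on the prior count and is no estimate of the fold. At 3 days all 44 lie right of 0, and at 1 day 20 lie right and 24 left.

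The genes of Ki-67 and of the DNA untangling enzyme both rose at 3 days over uninjured, with a median log2 fold change of 5.43. Mki67 (ENSMUSG00000031004), whose protein coats mitotic chromosomes and keeps them apart, had 35.6 and 31.6 CPM in uninjured libraries, 61.1, 37.2 and 46.6 CPM at 1 day, and 900, 1219 and 1556 CPM at 3 days. The 3 days libraries lay far above the other 5, with no overlap, and the 1 day libraries lay slightly above the uninjured pair. At 3 days over uninjured Mki67 rose by 5.19 on the log2 scale (SE 0.29, adjusted p = 3.87e-07), the smallest p of all tested genes. Top2a (ENSMUSG00000020914), whose enzyme passes DNA strands through each other so that sister chromatids can part, had 5.66 and 6.13 CPM in uninjured libraries, 2.34, 7.86 and 7.52 CPM at 1 day, and 228, 375 and 303 CPM at 3 days. It rose at 3 days by 5.68 (SE 0.44, adjusted p = 1.77e-05), second by p among all tested genes, while its 1 day and uninjured libraries overlapped.

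Of the 6 condensin genes 5 rose at 3 days over uninjured, with a median log2 fold change of 2.17, the lowest of the 6 roles. Condensin loops and compacts mitotic chromosomes; Smc2 and Smc4 form the core that both complexes share, Ncapd2, Ncapg and Ncaph complete condensin I, and Ncapg2 belongs to condensin II. Ncaph (ENSMUSG00000034906), the clasp of condensin I, had 9.3 and 7.37 CPM in uninjured libraries, 16.7, 12.5 and 12.8 CPM at 1 day, and 55.2, 62.3 and 60.4 CPM at 3 days. Its 3 groups did not overlap, and the 3 days libraries lay close together. At 3 days over uninjured it rose by 2.83 (SE 0.31, adjusted p = 0.000166), the smallest p of the group. Ncapg (ENSMUSG00000015880), a condensin I subunit that helps it bind DNA, had 4.43 and 2.52 CPM in uninjured libraries, 0.623, 0.0802 and 0.308 CPM at 1 day, and 5.75, 8.49 and 12.4 CPM at 3 days. It was the only condensin member not called at 3 days (1.35, SE 0.74, adjusted p = 0.418), and 13.4% of its exonic bases also lie in Lcorl on the opposite strand, which was at 59 ± 4.47 CPM at 3 days and 98.8 ± 29.9 CPM in uninjured libraries. The core gene Smc2 rose by 2.51 (SE 0.31, adjusted p = 0.000415) to 84.7 ± 11.6 CPM at 3 days, against 14.9 ± 4.98 in uninjured libraries. Its partner Smc4 rose by 1.78 (SE 0.28, adjusted p = 0.00302) to 129 ± 43.5 CPM, against 37.4 ± 5.97. Ncapd2 rose by 3.40 (SE 0.54, adjusted p = 0.0031) and Ncapg2 by 1.83 (SE 0.40, adjusted p = 0.0218). The other condensin II subunits, named after their values were seen, were Ncaph2, which rose by 1.5 (SE 0.37, adjusted p = 0.0392), and Ncapd3, which was not called (0.18, SE 0.31, adjusted p = 0.868). The call of Ncapg2 was lost without either uninjured library, without 3 days replicate 2 or 3 or against a 1.5-fold threshold (adjusted p = 0.1), and that of Ncapd2 without uninjured replicate 1 (adjusted p = 0.0774).

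Of the 8 spindle and chromosome motors, 5 rose at 3 days over uninjured, with a median log2 fold change of 4.82. Kif15 (ENSMUSG00000036768), a motor that can stand in for Kif11 in holding spindle poles apart, had 1.55 and 1.65 CPM in uninjured libraries, 2.57, 2.33 and 0.616 CPM at 1 day, and 44.3, 49.7 and 44.9 CPM at 3 days. The 3 days libraries were nearly equal and far above the rest, and the 1 day and uninjured libraries overlapped. It rose by 4.85 (SE 0.55, adjusted p = 0.000216). Kif22 (ENSMUSG00000030677), a motor that binds chromosome arms and pushes them towards the spindle equator, had 4.7 and 8.19 CPM in uninjured libraries, 2.34, 2.33 and 2.4 CPM at 1 day, and 9.94, 11.2 and 8.79 CPM at 3 days. The groups did not overlap, but the gap between 3 days and uninjured was small and was not called (0.63, SE 0.53, adjusted p = 0.653). Kif11, the plus-end motor that pushes the spindle poles apart, rose by 4.79 (SE 0.66, adjusted p = 0.000951), and Kif4, a chromosome-bound motor that also shapes the central spindle, by 5.60 (SE 0.93, adjusted p = 0.00677); 15.1% of the exonic bases of Kif4 lie in Pdzd11 on the opposite strand, which was not called (0.92, SE 0.40, adjusted p = 0.266). The microtubule depolymerase Kif2c rose by 3.58 (SE 0.91, adjusted p = 0.0449). Kif18b, a motor of the astral microtubules, had 886 counts at 3 days and 2 counts in uninjured libraries, a ratio of 411 (95% interval 113 to 3397, counting error only; adjusted p = 0.000971). Kifc1, the minus-end motor that gathers spindle poles, had 95 counts at 3 days and 0 in uninjured libraries, at least 29.4-fold higher, and was not called (adjusted p = 0.115). Its reads could be shared with Kifc5b, which matches 2312 of the 2357 bases of its transcript at 96.8% identity. Kifc5b was at 3.86, 0.968 and 1.37 CPM at 3 days, against 0.107 and 0.206 CPM in uninjured libraries. Kif18a, which damps chromosome movement at the equator, was not called (2.25, SE 0.72, adjusted p = 0.112). Kif4 was no longer called without uninjured replicate 1 (adjusted p = 0.117) or with no filter on low counts (adjusted p = 0.104). Kif2c lost its call without any 1 of the uninjured or 3 days libraries and against a 1.5-fold threshold (adjusted p = 0.12).

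Spindle assembly proteins rose for 7 of 9 genes, with a median of 3.74. Nusap1 (ENSMUSG00000027306), which bundles microtubules around the chromosomes, had 4.22 and 3.55 CPM in uninjured libraries, 0.312, 0.642 and 0.554 CPM at 1 day, and 56.9, 63.2 and 97.8 CPM at 3 days. The 3 groups were wholly apart, with 1 day lowest and 3 days highest. It rose at 3 days over uninjured by 4.22 (SE 0.39, adjusted p = 6.1e-05). Ckap2 (ENSMUSG00000037725), a microtubule-stabilising protein of the spindle, had 2.35 and 0.515 CPM in uninjured libraries, 0, 0 and 1.29 CPM at 1 day, and 20.9, 12.7 and 11.9 CPM at 3 days. The uninjured libraries differed several-fold from each other, and the gene was not called (3.40, SE 1.15, adjusted p = 0.136). Hmmr, a microtubule-binding adaptor of the spindle poles, rose by 6.68 (SE 0.88, adjusted p = 0.000705), Tpx2, the activator of the Aurora A kinase, by 5.35 (SE 1.05, adjusted p = 0.0255), and Aspm, which focuses the spindle poles, by 3.63 (SE 0.68, adjusted p = 0.00844). Spag5, which holds sister centromeres and spindle poles in order, rose by 5.38 (SE 0.73, adjusted p = 0.00162). Aurka, the Aurora A kinase itself, was not called (2.60, SE 0.70, adjusted p = 0.0602). Tacc3 and Ckap5 work as a pair on spindle microtubules and stood far apart in fold. Tacc3 rose by 3.74 (SE 0.53, adjusted p = 0.00114). Ckap5, the microtubule polymerase that non-dividing cells also use, rose by 0.86 (SE 0.21, adjusted p = 0.0388), to 116 ± 18.3 CPM at 3 days, against 63.8 ± 4.13 CPM in uninjured libraries. The Ckap5 call did not hold with library totals as the scale (0.70, adjusted p = 0.116), with DESeq2 size factors (adjusted p = 0.0503), against a 1.5-fold threshold (adjusted p = 0.557) or without any 1 of the uninjured or 3 days libraries. The call of Tpx2 was lost without either uninjured library, without 3 days replicate 1 or 3, with no filter on low counts (adjusted p = 0.178) or against a 1.5-fold threshold (adjusted p = 0.0572), and that of Aspm without uninjured replicate 2 (adjusted p = 0.0706) or 3 days replicate 3 (adjusted p = 0.073).

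Among the 9 central spindle and cytokinesis genes 6 rose, with a median of 3.22. Anln (ENSMUSG00000036777), the scaffold that ties the actomyosin ring to the membrane, had 5.56 and 4.28 CPM in uninjured libraries, 4.28, 4.41 and 2.16 CPM at 1 day, and 35.2, 56.1 and 42.4 CPM at 3 days. The 3 days libraries stood clear of the rest, and the other groups overlapped. It rose by 3.18 (SE 0.43, adjusted p = 0.00084), the smallest p of the group. Prc1 (ENSMUSG00000038943), which bundles the antiparallel microtubules of the central spindle, had 8.76 and 4.89 CPM in uninjured libraries, 0.623, 25.6 and 9.24 CPM at 1 day, and 13.1, 19.4 and 30.1 CPM at 3 days. Its 1 day libraries spanned the uninjured pair and reached above 3 days replicates 1 and 2 but not replicate 3, and it was not called at 3 days over uninjured (1.61, SE 0.98, adjusted p = 0.489); 11.1% of its exonic bases lie in Rccd1 on the opposite strand. The subunits of centralspindlin, the complex that sets the cleavage site, both rose: Racgap1 by 5.08 (SE 0.84, adjusted p = 0.00396) and Kif23 by 2.12 (SE 0.55, adjusted p = 0.0472). Ect2, the exchange factor that centralspindlin brings to the cortex to switch on RhoA, was not called (2.78, SE 1.29, adjusted p = 0.31), and its 1 day replicate 1, at 7.79 CPM, lay above all other 1 day and uninjured libraries, which stayed at or under 1.65 CPM. Kif20b, a motor of late cytokinesis, rose by 3.22 (SE 0.45, adjusted p = 0.00117), Kif14, the motor that recruits the citron kinase to the midbody, by 6.20 (SE 1.31, adjusted p = 0.0169), and Cep55, which recruits the abscission machinery, by 6.08 (SE 1, adjusted p = 0.00388). Kif20a, which carries the chromosomal passenger complex to the midzone, was not called (3.53, SE 1.34, adjusted p = 0.191), and 29.3% of its exonic bases lie in Cdc23 on the opposite strand. Kif23 lost its call without any 1 of the uninjured or 3 days libraries, with DESeq2 size factors (adjusted p = 0.0512), with library totals as the scale (adjusted p = 0.0608) and against a 1.5-fold threshold (adjusted p = 0.165). Kif14 lost it by DESeq2 (adjusted p = 0.0578) and without uninjured replicate 2 or 3 days replicate 1 or 3. Its log2 fold change was 5.22 without uninjured replicate 2. Without uninjured replicate 1 the uninjured group held 0 counts of Kif14, so that fit gives no estimate of the fold. Racgap1 lost its call without uninjured replicate 1 (adjusted p = 0.0943), and Cep55 without either uninjured library.

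The kinases, cyclins and exit enzymes rose for 8 of 10 genes, with a median of 5.23. Ccna2 (ENSMUSG00000027715), the cyclin of S phase and mitotic entry, had 1.34 and 2.01 CPM in uninjured libraries, 0, 0.802 and 1.42 CPM at 1 day, and 74.1, 59.9 and 91.9 CPM at 3 days. Only the 3 days libraries were high, and the 1 day and uninjured libraries overlapped. It rose by 5.48 (SE 0.67, adjusted p = 0.0004); 12.5% of its exonic bases lie in Exosc9 on the opposite strand, which was not called (1.18, SE 0.82, adjusted p = 0.559). Espl1 (ENSMUSG00000058290), the separase that cuts cohesin at anaphase, had 6.57 and 9.43 CPM in uninjured libraries, 11.8, 6.5 and 5.73 CPM at 1 day, and 14.4, 22.5 and 24 CPM at 3 days. The 3 days libraries were the highest, but the difference from uninjured was not called (1.34, SE 0.46, adjusted p = 0.147). Ccnb1 and Ccnb2, the cyclins that drive mitosis with Cdk1, rose by 5.19 (SE 0.83, adjusted p = 0.00321) and 3.01 (SE 0.59, adjusted p = 0.0103). Near copies of Ccnb1 with rows of their own, Ccnb1-ps and Gm12856, held 3 and 10 counts in all at 3 days. Cdk1 rose by 4.57 (SE 1.19, adjusted p = 0.0493), and Ube2c, the ubiquitin-conjugating enzyme of the anaphase-promoting complex, by 5.27 (SE 0.76, adjusted p = 0.00139); 22.8% of the exonic bases of Ube2c lie in Tnnc2, not used here, on the opposite strand. Pbk, a mitotic kinase, had 1618 counts at 3 days and 2 in uninjured libraries, a ratio of 750 (95% interval 207 to 6200; adjusted p = 0.000445). Cdc25c, the phosphatase that activates Cdk1, had 219 counts at 3 days and 1 in uninjured libraries, a ratio of 203 (95% interval 36.1 to 8057; adjusted p = 0.0113). Plk1, the polo kinase of mitotic entry, spindle and exit, was not called (4.16, SE 1.21, adjusted p = 0.0813). Cdk1, Cdc25c, Ccnb1 and Ccnb2 lost their calls without at least 1 of the uninjured or 3 days libraries: Cdk1 without any 1 of the 5, Cdc25c without either uninjured library or 3 days replicate 1 or 3, Ccnb2 without either uninjured library or 3 days replicate 3, and Ccnb1 without uninjured replicate 2 (adjusted p = 0.0548). Cdk1 also lost it with DESeq2 size factors (adjusted p = 0.0513), with no filter on low counts (adjusted p = 0.18), with a stricter one (adjusted p = 0.0501) and against a 1.5-fold threshold (adjusted p = 0.125).

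At 3 days over uninjured 11 members were not called: Ncapg, Kifc1, Kif18a, Kif22, Aurka, Ckap2, Prc1, Kif20a, Ect2, Plk1 and Espl1. All of their 3 days libraries lay above the uninjured pair, as in 20.1% of all tested genes. Of these 11 members 8 were higher at an unadjusted p under 0.05, as were 1602 of all 17390 tested genes, called or not. The 11 do not form 1 role: each group except Mki67 with Top2a and the condensins had at least 2 of them. DESeq2 called Aurka higher (adjusted p = 0.000731), and so did limma-voom (adjusted p = 0.0323). A fit to the uninjured and 3 days libraries alone also called it (adjusted p = 0.00512). Plk1 was called in the same fits (adjusted p = 0.00213, 0.0417 and 0.00332). DESeq2 also called Kif18a (adjusted p = 0.0116), Kif20a (0.0213) and Espl1 (0.0356), and limma-voom called Ckap2 (0.0168). The fit to 2 groups also called Kifc1 (adjusted p = 0.0125), Prc1 (0.0311) and Ect2 (0.0159). Ncapg and Kif22 were called under no alternative.

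Levels within the set were uneven. Per kilobase of exonic sequence, Mki67 stood at 122 CPM at 3 days, followed by Top2a at 33.5, Smc4 at 24.8, Pbk at 22.3, Ccnb2 at 18.6, Ccna2 at 18.4 and Nusap1 at 17.9 CPM per kilobase. The median member had 4.73 CPM per kilobase at 3 days, against 0.386 in uninjured libraries. In uninjured libraries the order was another, led by Smc4 at 7.19 and Ckap5 at 6.74 CPM per kilobase, with Mki67 at 3.34. Among condensin genes at 3 days, the shared core was highest (Smc4 24.8 and Smc2 15.5 CPM per kilobase), then Ncaph at 13.8, Ncapd2 at 6.35, Ncapg2 at 4.54 and Ncapg at 1.26. Exonic length here joins all annotated exons of a gene, and the evenness of coverage after amplification was not examined. Ranks between genes therefore hold for this measure alone. Mki67 made up 37.8%, 38.7% and 44% of the set's summed level at 3 days, against 13.1% and 13.1% in uninjured libraries. Without it the sum was 1797 ± 274 CPM at 3 days, against 223 ± 18.4 CPM in uninjured libraries. The 3 days libraries differed in order across the set: replicate 3 was the highest of the 3 for 22 of 44 genes, replicate 2 for 16 and replicate 1 for 6. The median coefficient of variation of the members was 24.9% at 3 days, near the 27.7% of all tested genes, and 38.5% in uninjured libraries (42 members with a count), against 21.3% of all tested genes.

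**Figure D4:**
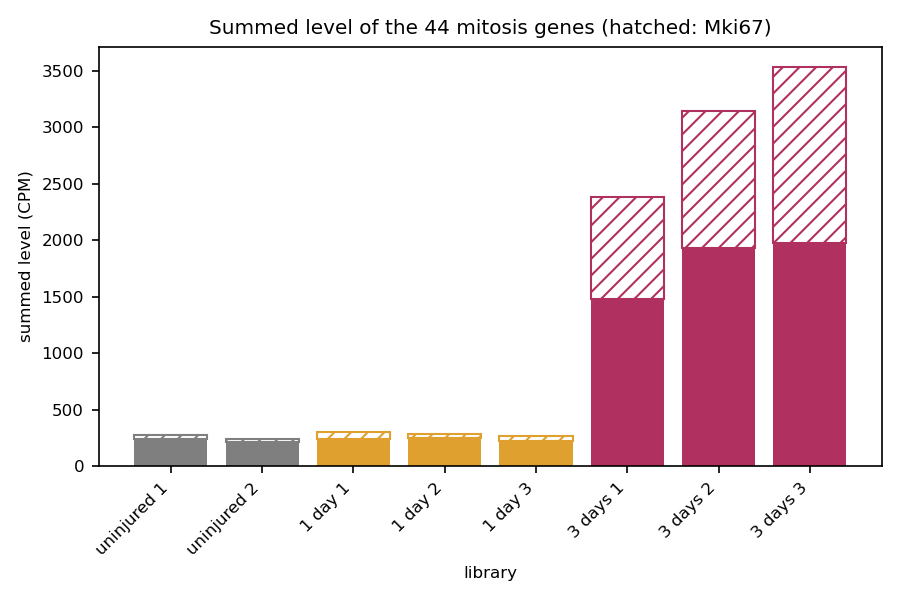
Summed level of the 44 genes (CPM, vertical axis from 0) in each library, with the Mki67 share hatched. The 5 uninjured and 1 day bars lie between 242 and 299 CPM, and the 3 days bars at 2382, 3149 and 3535 CPM.

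At 1 day after crush 4 of 44 members were called, in a comparison that shares its uninjured libraries with that of 3 days. The summed level of the set was 299, 282 and 266 CPM at 1 day, against 272 and 242 CPM in uninjured libraries, means of 282 ± 16.6 and 257 ± 21.2 CPM (SD, n = 3 and n = 2) and a ratio of 1.1. The median log2 fold change was -0.11, with 20 members above 0 and 24 below, and 0.06 over all tested genes. Melk was the 1 member that rose, against 0.61% of all tested genes called higher, and 3 fell, Nusap1, Spag5 and Ncapg, against 1.16% called lower. In 6 members all 1 day libraries lay above both uninjured libraries (14.3% of all tested genes did), and in 8 all lay below (15% of all tested genes did). At an unadjusted p under 0.05 there were 15 members, 6 higher and 9 lower. Of all 17390 tested genes 2569 were under it, 1270 higher and 1299 lower. Of the 44 members 11, 8 and 4 were at 0 counts in 1 day replicates 1, 2 and 3, against 4 and 4 in uninjured libraries. Fewer genes in all were detected in each of the 1 day libraries. Members varied more between them, with a median coefficient of variation of 80.9% (43 members with a count), against 38.5% in uninjured libraries; over all tested genes the medians were 41.4% at 1 day and 21.3% in uninjured libraries. Endothelial, mural and choroid plexus marker sums were lower in all 3 than in both uninjured libraries and microglial marker sums were higher. The mitochondrially encoded share of counts was 13.6%, 21.9% and 13.9% at 1 day, against 22.5% and 21.3% in uninjured libraries, so that replicate 2 stood apart from the other 1 day libraries. The part of these differences in the falls was not tested.

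Nusap1 fell at 1 day by 2.93 on the log2 scale (SE 0.40, adjusted p = 0.00269), to 0.503 ± 0.171 CPM, against 3.89 ± 0.471 CPM in uninjured libraries. All 3 of the 1 day libraries lay under both uninjured ones, and the call held with each library left out in turn. It did not hold by limma-voom (adjusted p = 0.169) or in a fit to the 1 day and uninjured libraries alone (adjusted p = 0.258). Spag5 (ENSMUSG00000002055) had 0.427 and 0.361 CPM in uninjured libraries, 0 in all 3 libraries at 1 day, and 20.5, 11.9 and 17.9 CPM at 3 days. It had 0 counts at 1 day and 15 in uninjured libraries, at least 5.45-fold lower at a floor of 3 counts for the group (adjusted p = 0.0347). Ncapg fell by 3.33 (SE 0.78, adjusted p = 0.0444), to 0.337 ± 0.273 CPM, against 3.48 ± 1.35 CPM in uninjured libraries. The call of Spag5 was lost without any 1 of the 8 libraries (adjusted p between 0.0571 and 0.231). That of Ncapg was lost without any 1 of them except 1 day replicate 1 (adjusted p of the lost calls between 0.0617 and 0.47). Both were also lost by limma-voom (adjusted p = 0.329 for Spag5 and 0.128 for Ncapg), and that of Ncapg in a fit to the 1 day and uninjured libraries alone (adjusted p = 0.278). Melk (ENSMUSG00000035683), a kinase of dividing progenitor cells, had 0 CPM in both uninjured libraries, 0.545, 1.12 and 0.862 CPM at 1 day, and 4.05, 12 and 11.8 CPM at 3 days. With 35 counts at 1 day and 0 in uninjured libraries it was at least 10.7-fold higher at 1 day (adjusted p = 0.0279), and with 369 counts at least 114-fold higher at 3 days (adjusted p = 0.00117). Its 1 day call was lost without either uninjured library or without 3 days replicate 2 or 3, which enter the shared estimate of spread, by limma-voom (adjusted p = 0.226) and in the fit to 2 groups (adjusted p = 0.294). Mki67 stood at 48.3 ± 12 CPM at 1 day, against 33.6 ± 2.83 CPM in uninjured libraries, and was not called (0.53, SE 0.23, adjusted p = 0.306).

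Between 1 day and 3 days, 39 of 44 members rose by edgeR and none fell by edgeR, DESeq2 or limma-voom or at an unadjusted p under 0.05, against 5.24% of all tested genes called higher and 5.75% called lower. This comparison and that of 3 days with uninjured share the 3 days libraries, so their calls are not independent. Of the 33 members that passed the filter on low counts without the 3 days libraries, 29 were called higher. The mitochondrially encoded share of counts was 22.8% to 30.3% at 3 days, against 13.6% to 21.9% at 1 day, and the part of this difference in the result was not tested. The median log2 fold change was 4.08, against 0.02 over all tested genes, and the summed levels had a ratio of 10.7. In 40 members all libraries at 3 days lay above all at 1 day (16.1% of all tested genes did). The 5 not called were Kifc1, Kif18a, Ckap5, Prc1 and Ect2. All 6 condensin genes were called (median 2.73), all 10 kinases, cyclins and exit enzymes (median 5.12), 8 of 9 spindle assembly proteins (median 5.28), 7 of 9 central spindle and cytokinesis genes (median 3.63) and 6 of 8 motors (median 4.19). Mki67 rose by 4.66 (SE 0.23, adjusted p = 9.68e-08), Top2a by 5.67 (SE 0.37, adjusted p = 1.09e-06) and Nusap1 by 7.15 (SE 0.40, adjusted p = 2.15e-07). Ncapg, which was not called against uninjured, rose by 4.69 (SE 0.77, adjusted p = 0.00157), and Kif22 rose by 2.08 (SE 0.49, adjusted p = 0.0142). Ckap5 was not called (0.36, SE 0.19, adjusted p = 0.235), with 116 ± 18.3 CPM at 3 days and 90.2 ± 15.7 CPM at 1 day. Spag5, with 696 counts at 3 days and 0 at 1 day, was at least 234-fold higher (adjusted p = 4.22e-05). Ect2 was not called (1.49, adjusted p = 0.403), but without 1 day replicate 1 it had a log2 fold change of 4.99 (adjusted p = 0.00536). The calls of Kif22, Kif20a, Cdk1, Plk1, Espl1 and Melk were each lost without at least 1 of the 3 days libraries, those of Kif20a, Cdk1, Plk1 and Espl1 also without at least 1 of the 1 day libraries, and that of Espl1 also without either uninjured library. Those of Kif22, Kif20a, Cdk1, Plk1, Espl1 and Tpx2 were lost under at least 1 other alternative.

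Lists of genes that work with the 44 were examined at 3 days over uninjured, where edgeR called 2.49% of all tested genes higher and 0.983% lower. Of 36 kinetochore, checkpoint and passenger complex genes 16 rose (median 2.43), led by the kinetochore proteins Cenpe (4.33, SE 0.36, adjusted p = 3.41e-05) and Cenpf (3.42, SE 0.32, adjusted p = 6.55e-05) and the checkpoint kinase Bub1 (5.20, SE 0.59, adjusted p = 0.000219). Of 38 DNA replication genes 16 rose (median 2.35), led by Clspn, a mediator of replication checkpoint signalling (6.56, SE 0.60, adjusted p = 6.1e-05), the DNA ligase Lig1 (3.29, SE 0.34, adjusted p = 0.000101) and the helicase subunit Mcm5 (4.37, SE 0.47, adjusted p = 0.00015). Of 39 other mitosis genes 11 rose (median 1.60), led by the spindle protein Ckap2l (2.81, SE 0.27, adjusted p = 6.55e-05), Cdca3, a factor that promotes mitotic entry (5.03, SE 0.88, adjusted p = 0.00564), and the citron kinase gene Cit (3.14, SE 0.61, adjusted p = 0.0101). Ckap2l was also called higher at 1 day (2.31, SE 0.26, adjusted p = 0.00113). It stood at 106, 112 and 71 CPM there, against 19 and 19.9 CPM in uninjured libraries. Shared exonic bases with other genes were examined for the 44 members alone, and so not for Ckap2l. Its relative Ckap2, a member of the set, had a log2 fold change of -1.63 at 1 day (SE 1.08, adjusted p = 0.552). The difference between these 2 genes was not tested. Of 20 transcription regulators of the cell cycle, 5 rose (median 0.82), among them Foxm1 (3.67, SE 0.52, adjusted p = 0.00117), E2f1 (3.89, SE 0.71, adjusted p = 0.00704) and E2f2 (2.30, SE 0.45, adjusted p = 0.011).

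Lists of related complexes that cells also use outside mitosis had medians of 0.30 or less. Of 18 genes of the anaphase-promoting complex and its regulators only Anapc5 was called (0.99, SE 0.23, adjusted p = 0.0295), with a median of 0.30. The log2 fold changes of this list ran from -1.23 to 3.48. An unadjusted p under 0.05 was found for 5 of the 18, all higher, and for 1602 higher genes of all 17390 tested. All 3 days libraries lay above both uninjured libraries in 8 of the 18, against 20.1% of all tested genes. Of 13 cohesin genes 3 rose and 1 fell, with a median of 0.01. Those that rose were Cdca5, the protector of cohesin in dividing cells (4.45, SE 0.92, adjusted p = 0.0193), the S phase acetyltransferase Esco2 (4.69, SE 1.02, adjusted p = 0.0198) and the ring subunit Smc1a (0.95, SE 0.21, adjusted p = 0.0203). Esco1, the acetyltransferase that acts outside S phase, named after its value was seen, fell by 1.27 (SE 0.29, adjusted p = 0.0272). Of 19 transport kinesins and light chains 0 were called by edgeR, DESeq2 or limma-voom at 3 days over uninjured, with a median of -0.03. In this list 1 gene had an unadjusted p under 0.05, as had 2749 of all 17390 tested genes. By edgeR 2.49% of all tested genes were called higher and 0.983% lower, so 0 calls among 19 genes lie near that share. The 3 with the smallest p were Kif3b (0.81, SE 0.29, adjusted p = 0.164), Kif13a (-0.49, SE 0.23, adjusted p = 0.316) and Kif3a (0.65, SE 0.32, adjusted p = 0.35). At 1 day over uninjured Kif21a of this list, also named after its value was seen, was called lower (-4.66, SE 0.82, adjusted p = 0.01).

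**Figure D5:**
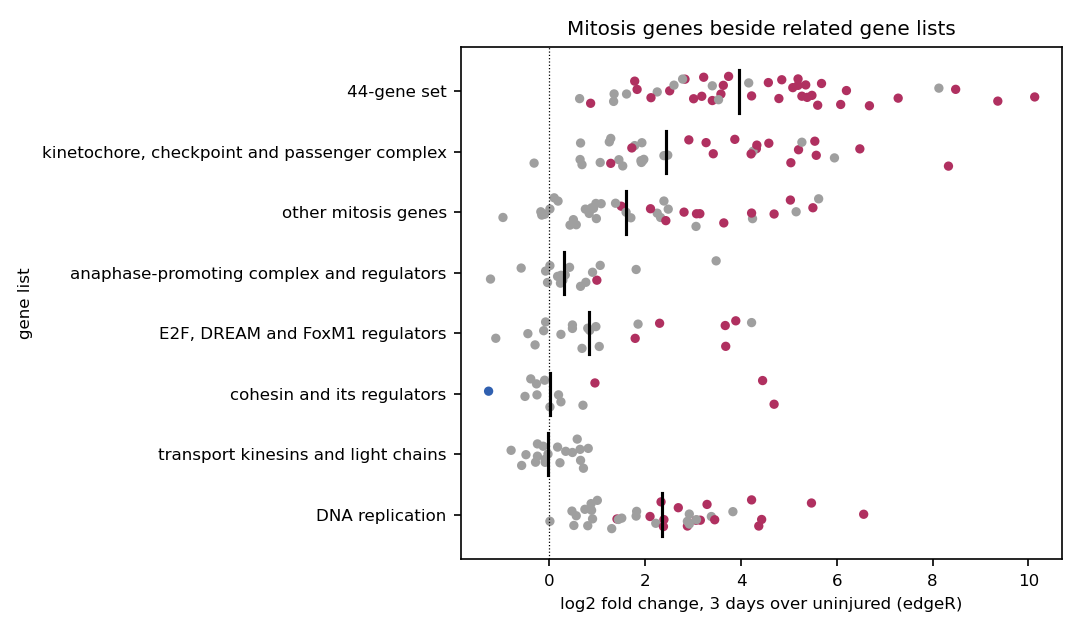
Log2 fold change by edgeR at 3 days over uninjured (horizontal axis) for each tested gene of the 44-gene set and of 7 related lists (rows); red points are genes called higher, blue lower, grey not called, and the black bar is the list's median. The bar stands at 3.95 for the 44 genes, 2.43 for kinetochore and checkpoint genes, 2.35 for DNA replication genes and -0.03 for transport kinesins.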

How the data were processed

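The authors deposited 1 table of raw read counts, with a row for each Ensembl gene and a column for each library; columns were matched to samples by name. FastQC, STAR, HTSeq and build mm9 are named in the submitters' processing notes. Their versions, the annotation and the strandedness of counting are not given, so reads of overlapping antisense genes cannot be told apart. Symbols, exon lengths and overlaps came from GENCODE M21, promoter sequences from RefSeq. Libraries of a group differed by more than sampling noise (31.4 to 64.8 per degree of freedom by chi-square), and none was merged.

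The test was edgeR 4.0.16 (R 4.3.3): low counts were removed by filterByExpr over the 3 groups (17390 genes kept), libraries were scaled by TMM, and 1 robust quasi-likelihood model held all 8 libraries, so that the groups share an estimate of spread. Adjustment was over all tested genes. The biological coefficient of variation was 51.1%. Each SE is the log2 fold change over the root of its F. A group at 0 counts gives a bound, taken at 3 counts for the group; 1 to 3 counts give a ratio with an exact binomial 95% interval. Both cover counting error only. The 44 members, the role groups and the related lists were chosen with earlier results of these data known. Per-library values are given for Mki67, Top2a, the smallest- and largest-p member of each role at 3 days over uninjured, and members called at 1 day. Of each related list, the up to 3 smallest p are named, but of the anaphase-promoting complex list only the called gene is. Alternatives were DESeq2 1.42.0, limma-voom 3.58.1, other scalings and filters, a fit to 2 groups, a replicate block, a 1.5-fold threshold and each library left out.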

Additional observations from a re-analysis of the deposited data

How the results depend on the processing

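No member changed direction in a called comparison under any alternative. At 3 days over uninjured, the count of 33 members called higher was 27 to 42 under the alternatives other than leaving out libraries, and 21 to 35 with each library left out. Of the 33 calls 18 held with each library left out and 25 under all other alternatives. At 3 days over 1 day the count of 39 was 34 to 40 and, with each library left out, 33 to 40. The 1 day calls were the least stable. The 1 member higher at 1 day became 0 by limma-voom, 0 in the fit to 2 groups, 0 with the 1.5-fold threshold, and 0 to 1 with each library left out. The 3 members lower became 6 by DESeq2, 0 by limma-voom, 0 in the fit to 2 groups, where 33 members were tested, 1 with the 1.5-fold threshold, and 1 to 3 with each library left out. The cause was not tested. The labels do not say whether the replicate numbers pair libraries. Correlations of same-numbered deviations ran between -0.0599 and 0.0906, and with 2 or 3 libraries per group they cannot settle this. With the replicate block 31 members rose at 3 days over uninjured and 37 rose at 3 days over 1 day. At 1 day 1 rose (Melk) and 2 fell (Nusap1 and Ncapg2) with this block. Ncapg (adjusted p = 0.0529) and Spag5 (adjusted p = 0.0552) were not called there. The summed levels moved by less than their SD under both other scalings: 2899 to 3022 CPM at 3 days, 279 to 282 CPM at 1 day and 257 to 276 CPM in uninjured libraries. Among related lists at 3 days over uninjured, DESeq2 called 19 other mitosis genes higher where edgeR called 11, 26 DNA replication genes where edgeR called 16, 8 cell cycle regulators where edgeR called 5, and 3 anaphase-promoting complex genes where edgeR called 1. Over all tested genes DESeq2 called 873 of 13889 higher there, against 433 of 17390 by edgeR. The alternatives other than leaving out libraries called from 164 genes (1.5-fold threshold) to 926 (fit to 2 groups) higher in all. How far the counts of members and lists follow these totals was not tested. Where a group held 3 or fewer counts of a member, the depth allows only a bound or a ratio with its counting interval.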
